A study of Mus musculus with 25 samples.

Results

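Between E12.5 and the days around birth, 2027 of 28175 regions of 10 kb around mouse transcript starts lost ATAC-seq signal in sorted retinal progenitor cells, and these closing regions are described here. A region was kept when its lower CPM (counts scaled to the library's total over all regions) in the 2 E12.5 libraries was at least 10 and at least 1.7 times the highest CPM among the 4 E18 and P0 libraries. The 2027 regions are 7.19% of all regions and 10.1% of the 19981 that reached the floor of 10 CPM in both E12.5 libraries. They belong to 1846 of 24249 gene symbols. Overlapping starts of one gene or of neighbours share their counts, so the members form 1804 separate stretches. Members were thus selected on the E12.5, E18 and P0 values, which are given as description, without a test. The E10, E14, E16.5 and P2 libraries and the RNA took no part in the choice.

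All samples came from the retina of CD1 mice and were sorted by GFP, whose reporter the labels do not name. The GFP+ cells are labelled retinal progenitors and the GFP- cells post-mitotic retinal cells. ATAC-seq covered GFP+ cells only, with a pair of libraries at P2, at P0 and at each of 4 embryonic ages (E12.5, E14, E16.5 and E18) and 1 library labelled E10 in its title and E10 or E11 in its stage field. RNA-seq covered both sorts at E14, E18 and P2 with 2 libraries each, 12 in all. No treatment or allele other than GFP is named, and the labels do not say whether replicates came from separate animals, and a p-value here reflects just how far these libraries spread. In bulk samples, fewer cells of a type and less signal per cell cannot be told apart. The summed FPKM (fragments scaled to gene length and library size) of 14 core progenitor genes was 1817 to 3820 in the GFP+ libraries and 677 to 2035 in the GFP- ones, and none of the 14 was at 0 in any library.

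Retinal progenitors divide and give rise to the retinal cell types in a fixed, overlapping order, with ganglion cells, horizontal cells and cones early and rods, bipolar cells and Mueller glia late. Their competence shifts with age, and the RNA-binding protein Lin28 and the transcription factor Ikaros (Ikzf1) are known from the early period. In ATAC-seq a transposase cuts accessible DNA and inserts adapters for sequencing. An accessible promoter or enhancer thus appears as a local peak of counts over a lower, even background.

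Several libraries stood apart. Regions held between 11176227 counts (P0 replicate 2) and 94662422 (E18 replicate 2). Over all regions, the central 400 bp held 6.40 times the count density of the outermost windows in the E10 library and 12.2 times in P2 replicate 2, against 18.5 to 28.6 times in the other 11. The median CPM of the closing regions was 23.4 in the E10 library and 15.6 in P2 replicate 2, against 7.95 in P2 replicate 1. The 2 libraries with the lowest start enrichment therefore had the highest median outside E12.5. At E12.5 the enrichment was 19.9 and 18.5, below the 23.7 to 28.6 of E14 to P0. The part of start enrichment in the closing regions was not tested. Of the RNA libraries, both E14 replicates 2 held lens and pigment epithelium genes. The summed FPKM of 12 lens genes was 115 in GFP+ replicate 2 and 4364 in GFP- replicate 2, against 5.30 and 2.35 in the replicates 1. The E14 GFP- replicate 2 also held 86.4 summed FPKM of 15 ganglion cell genes, against 6657 in replicate 1.

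The upstream sequences of 3 closing regions are shown because their genes had some of the lowest p-values in the E14 to P2 comparison or the highest ratios, and because they are poor in CpG, as were most closing regions. They are the 250 bases before the RefSeq start in GRCm38.p6, 5′ to 3′ on the gene's strand, with each CpG in capitals: Kcnj13 (an inward rectifier potassium channel) at chr1:87394730-87394979 on the minus strand, Clec18a (a C-type lectin) at chr8:111081709-111081958 on the minus strand and Oca2 (a melanosome membrane protein needed for pigment) at chr7:56239509-56239758 on the plus strand.
Kcnj13: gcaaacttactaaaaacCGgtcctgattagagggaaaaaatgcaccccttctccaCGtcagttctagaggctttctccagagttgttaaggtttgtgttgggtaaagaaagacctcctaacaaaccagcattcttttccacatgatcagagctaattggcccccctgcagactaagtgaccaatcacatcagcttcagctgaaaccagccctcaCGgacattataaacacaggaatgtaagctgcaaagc
Clec18a: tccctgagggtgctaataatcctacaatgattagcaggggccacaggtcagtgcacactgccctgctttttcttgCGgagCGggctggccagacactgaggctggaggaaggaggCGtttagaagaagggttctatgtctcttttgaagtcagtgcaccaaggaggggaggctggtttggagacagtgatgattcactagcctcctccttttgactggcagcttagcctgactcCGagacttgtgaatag
Oca2: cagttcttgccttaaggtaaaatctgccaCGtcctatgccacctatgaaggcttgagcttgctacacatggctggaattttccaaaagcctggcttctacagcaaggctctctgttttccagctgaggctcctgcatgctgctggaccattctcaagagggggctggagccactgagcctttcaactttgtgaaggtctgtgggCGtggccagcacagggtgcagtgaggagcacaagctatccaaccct
They hold 3, 4 and 2 CpG, in this order, and the count of CpG over that which their C and G content would give is 0.240, 0.236 and 0.113.

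Of the closing genes, 1829 were matched to RefSeq by accession, and 1068 of them had a single promoter in the table. The median CpG count in 250 bases was 4 for these, 9 for the 15229 such genes of all regions and 15 for those of the regions at the CPM floor. The median GC content was 51.2%, 55.2% and 59.6%, in the same order. A CpG observed over expected of at least 0.6 was found in 16.1% of closing promoters, 44.6% of all and 62.6% at the floor. Letters were searched on both strands. GGGCGG, the GC box of Sp and Klf factors, was in 26.3% of closing promoters, 42.3% of all and 56.9% at the floor. In the same order, the Nrf1 letters GCATGCGC were in 0.0936%, 3.03% and 4.04%, the Ets letters CCGGAAGT in 1.03%, 3.85% and 5.14%, and the E2F letters TTTCCCGC in 0.187%, 1.24% and 1.65%. Of letters without a CpG, CAGCTG (an E-box) was in 15.7%, 12.2% and 12.6%, TAATCC (bound by Otx2 and Crx) in 8.24%, 6.19% and 5.43%, TATAAA in 14.5%, 12.8% and 7.24%, and AGATAA (bound by Gata factors) in 11.4%, 9.11% and 6.04%. Against the floor, TATAAA and AGATAA were thus at higher shares in closing promoters and the GC box at a lower one. The rule turned round (E18 and P0 above E12.5) gave 153 opening regions, 77 of whose genes had a single promoter. TATAAA was in 16.9% of these, the GC box in 39.0% and AGATAA in 3.90%. The TATAAA and GC box differences were thus not particular to closing regions. Among closing promoters with a start peak, as defined below, TATAAA was in 10.1% and the GC box in 39.5%. Among those with a start under 2 times the outer density they were in 21.1% and 9.01%. A match is a description of the letters. GC content differs between closing and other promoters, and its part in the counts of the libraries was not tested.

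The values that chose the members were as follows. Median CPM over the closing regions was 18.5 and 19.98 in the E12.5 libraries, 7.53 and 7.25 at E18 and 6.32 and 6.17 at P0. Over all regions at the floor the same medians lay between 39.3 and 42.0. The closing regions held 5.10% and 5.57% of all counts at E12.5 and 1.87% in each P0 library. Ratios reached 54.5 with a median of 2.19, and 692 regions were below 2 while 260 reached 3. Just inside the threshold, Cldn1 (a tight junction protein) had 41.8 and 46.8 CPM at E12.5 and at most 24.6 later. Just outside it, Aadat had 53.7 and 57.5 CPM and at most 31.6.

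The next libraries in age, which the choice did not use, lay between the extremes. Median CPM was 10.3 and 9.74 at E14, 8.47 and 9.57 at E16.5 and 7.95 and 15.6 at P2. Both E14 libraries were at or above the lower E12.5 value in 53 regions (2.61%), and both were at or below the highest E18 or P0 value in 393 regions (19.4%). The E12.5 values are extreme by choice, so the step from E12.5 to E14 holds that choice as well, and a small number of regions kept their E12.5 level at E14. The E10 library reached the lower E12.5 value in 1238 of the 2027. A separate count over gene exons in the same libraries, for 1608 of the genes, had medians of 24.8 and 26.0 CPM at E12.5, 13.6 and 12.8 at E14 and 9.24 and 9.49 at P0.

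**Figure D1:**
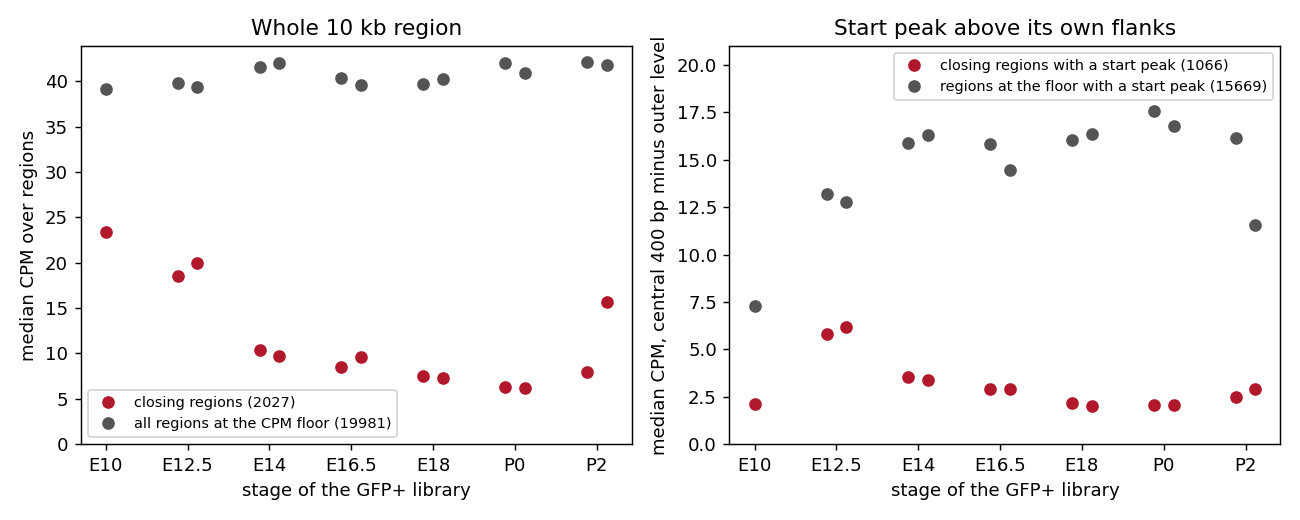
Median CPM by library (points, 1 per library, x axis stage) of the whole 10 kb region (left) and of the central 400 bp minus the level of the outermost windows in regions with a start peak at E12.5 (right). Closing regions fell from 18.5 and 19.98 CPM at E12.5 to 6.32 and 6.17 at P0 while all regions at the floor stayed between 39.1 and 42.1, and the E10 library is high on the left and, at 2.12, low on the right, where P2 replicate 2, at 2.92, lies above P2 replicate 1 and the E16.5 to P0 libraries.

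Between E12.5 and P0 the signal was lost both at the start and along the flanks. The central 400 bp of the closing regions held 4.94 and 5.22 CPM per region at E12.5, 3.12 and 2.97 at E14, 2.63 and 2.65 at E16.5, 1.97 and 2.00 at P0 and 2.21 and 2.48 at P2. The outermost windows, put on the scale of 10 kb, went from 11.2 and 12.8 CPM at E12.5 to 4.32 and 4.04 at P0, while over all regions they went from 12.1 and 12.7 to 10.3 and 9.97. In libraries the choice did not use, these windows of the closing regions held 6.76 and 6.13 CPM at E14, 5.50 and 6.56 at E16.5, 5.255 and 11.1 at P2 and 19.7 at E10. In P2 replicate 2 the flanks were thus near the lower E12.5 value. Over all regions they held 11.35 and 15.6 CPM at P2 and 23.1 at E10. A start peak, here at least 5 times the outer density at E12.5, was present in 1066 closing regions (52.6%) against 78.4% of regions at the floor. In 598 (29.5%) the start was under 2 times the outer density, against 13.2% at the floor, and the strongest E12.5 window lay within 400 bp of the start in 45.5% of closing regions and 67.3% at the floor. Of the 153 opening regions, 46.4% had a start peak at E12.5 and 27.5% a start under 2 times the outer density. These shares were thus not particular to closing regions.

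Subtracting the outer density from the central 400 bp separates the peak from its own background. For the 1066 closing regions with a start peak this excess had a median of 5.83 and 6.16 CPM at E12.5, 3.54 and 3.37 at E14, 2.89 and 2.89 at E16.5, 2.09 in each P0 library and 2.50 and 2.92 at P2. For the 15669 regions at the floor with a start peak it was 13.2 and 12.8 at E12.5, 14.5 to 17.6 from E14 to P0 and 16.1 and 11.6 at P2. P2 replicate 2 was thus below all libraries of E12.5 to P0 at the floor, while in closing regions it was above replicate 1 and both libraries of E16.5, E18 and P0. The peak was defined at E12.5, so the E12.5 values are high by choice. The E10 library had 2.12 in closing regions and 7.31 at the floor.

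**Figure D2:**
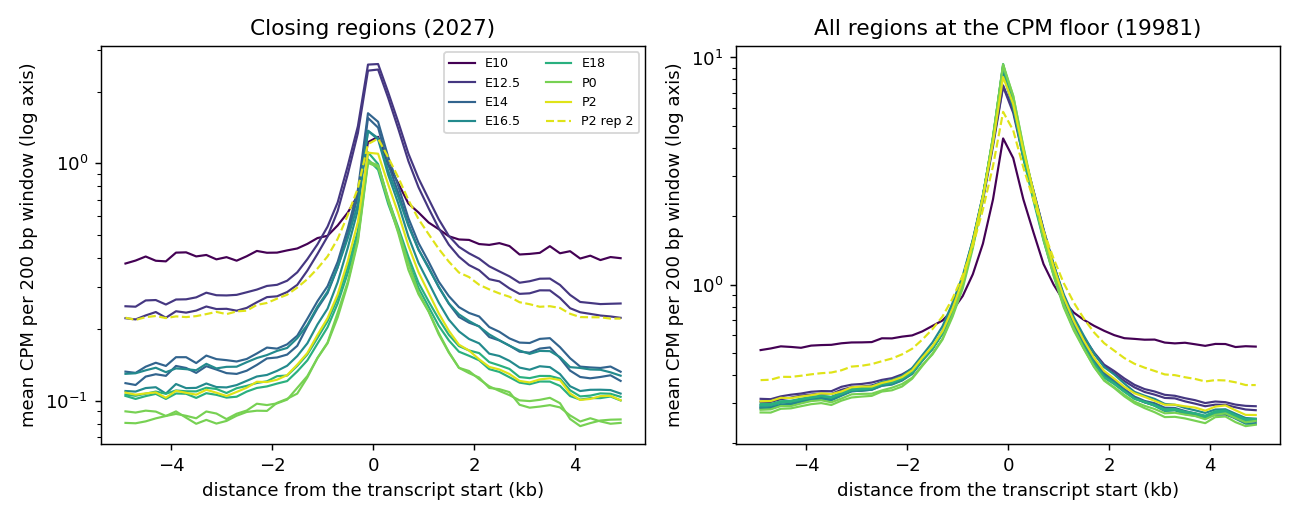
Mean CPM per 200 bp window (log axis) against distance from the transcript start in kb, 1 line per library coloured by stage, for closing regions (left) and all regions at the CPM floor (right). In closing regions both E12.5 lines lie above those of E14 to P0 over the whole 10 kb, whereas at the floor those lines nearly coincide, and the E10 line and the dashed line of P2 replicate 2 are raised in the flanks of both panels.

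Closing regions were spread unevenly over the genome. They made up 11.98% of regions on chromosome 1, 11.3% on chromosome 3 and 11.1% on chromosome 6, against 3.79% on chromosome 11, 3.85% on chromosome 19 and 4.01% on chromosome 7. The next region that did not overlap was also a closing region for 411 of 2024 (20.3%), against 7.78% over all regions. MicroRNA starts gave 76 of the members, 3.75% of them, against 4.10% of all regions.

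The 4 ratios of at least 10 all belonged to a stretch of near-identical gene copies at the start of chromosome 14, which held 9 members. Gm2897, a predicted gene there, had 17.9 CPM at E10, 23.6 and 24.5 at E12.5 and at most 0.56 in the other 10 libraries. LOC100861615 had 17.8, 23.6 and 24.4 CPM and at most 0.457. Reads of such copies cannot be assigned to one of them, and how they were counted is not given in the sources used here, so these values are uncertain. Among single genes the highest ratios included those of Gm17644 (a noncoding RNA, 7.95), Oca2 (6.03), the kidney protein gene Umod (5.84) and the growth inhibitor gene Mstn (5.41).

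Umod and Mstn were low from E14 on. Umod (chr7:126617776-126627775, mm9) had 18.3 and 16.3 CPM at E12.5, 4.18 and 3.63 at E14, 2.29 and 2.52 at E16.5 and 3.21 and 7.78 at P2. Mstn (chr1:53113484-53123483) had 32.6 and 33.8 CPM at E12.5, 10.2 and 8.83 at E14, 6.21 and 9.17 at E16.5 and 5.49 and 11.4 at P2. Their E14 libraries were already below E12.5 and within the range of the P2 libraries, and neither passed the test between E14, E16.5 and P2. The most open closing regions at E12.5 were those of Hjurp (the chaperone of the centromere histone), with 290 and 326 CPM, then 120 and 112 at E14 and 116 and 101 at P2, and of Vgll3, Vcan (the matrix proteoglycan versican), Frmd3, Ism1, Paqr8, Lrrc7 and Kcnt2. Kcnt2, a potassium channel, had 98.7 and 109 CPM at E12.5, 68.0 and 69.4 at E14 and 35.5 and 40.1 at P2. Vcan had 154 and 159 CPM at E12.5, 139 and 130 at E14 and 81.8 and 99.7 at P2, a later and smaller decline.

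Between E14 and E16.5, neither of which the choice used, the share of closing regions called lower was above that of all regions. In edgeR's quasi-likelihood test on the 6 libraries of E14, E16.5 and P2, 129 of 2027 closing regions (6.36%) were lower at E16.5 and 20 (0.987%) higher at an adjusted p under 0.05. Over all 27710 regions tested, 1.14% were lower and 1.58% higher. Over the regions at the floor, 1.56% were lower. The median log2 difference was -0.06 in closing regions, 0.01 in all and -0.015 at the floor. Most members thus did not differ beyond the spread of the libraries. With 1 library left out at a time, the median ranged from -0.15 to 0.013 in closing regions and from -0.005 to 0.009 in all. Fewer regions were called lower in each of these fits, among members and among all regions alike.

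The genes named next had the lowest p-values of this comparison and were chosen after their values were seen. Lin28a (chr4:133569731-133579730) had 28.7 and 30.4 CPM at E12.5, 29.6 and 34.3 at E14, 9.67 and 9.37 at E16.5, 10.9 and 9.20 at E18, 8.93 and 6.71 at P0 and 11.96 and 18.4 at P2. Its level held to E14 and the E16.5 libraries were both lower, with a log2 difference of -1.73 (SE 0.18, adjusted p = 6.9e-20). Sall4 (chr2:168587701-168597700), a zinc finger factor of early embryonic cells, had 44.7 and 43.9 CPM at E12.5, 56.9 and 59.2 at E14 and 22.8 and 22.9 at E16.5 (log2 difference -1.33, SE 0.15). Stra6 (chr9:57971895-57981894), the receptor that takes up retinol from its binding protein, had 46.2 and 49.8 CPM at E14 and 17.3 and 16.02 at E16.5 (log2 difference -1.51, SE 0.15). The E14 and E16.5 libraries did not overlap for these genes.

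Signalling and transport genes were among the others with low p-values in this interval. Shh (chr5:28788641-28798640), the Hedgehog ligand, had 31.4 and 30.8 CPM at E12.5, 29.9 and 29.3 at E14, 12.2 and 11.0 at E16.5 and 5.99 and 14.7 at P2. Its E16.5 value differed from E14 by -1.34 (log2, SE 0.18). Slc51a, a subunit of a bile acid and steroid transporter, had 26.9 and 26.2 CPM at E14 and 6.94 and 5.996 at E16.5. Prkcz, an atypical protein kinase C of cell polarity, had 29.3 and 29.97 CPM at E14 and 11.9 in each E16.5 library. B3gnt7, Mcf2l, Fez1 (an axonal transport adaptor) and Pik3c2g also fell, by 1.202, 1.39, 1.73 and 1.05 on the log2 scale.

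In some of these regions the counts lay away from the start. The strongest E12.5 window of Slc13a1, a sulfate transporter, was centred 3100 bp downstream of its start, and that of Gm17644 at 3500 bp. Slc13a1 (chr6:24113092-24123091) had 31.9 and 32.5 CPM at E14, 7.53 and 10.7 at E16.5 and 5.57 and 12.4 at P2. Gm17644 (chr1:12652644-12662643) had 38.3 and 36.9, 5.44 and 7.43, and 3.17 and 4.85. Both fell over the whole region, whereas in the central 2 kb alone the E16.5 difference of Gm17644 was 0.24 and the P2 difference of Slc13a1 was 0.23 on the log2 scale. By contrast, Kcnj13 (chr1:89286304-89296303) had its strongest window at the start, 56.3 times the outer density, and 26.3 and 30.5 CPM at E14, 12.2 and 11.97 at E16.5 and 6.39 and 9.48 at P2.

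**Figure D3:**
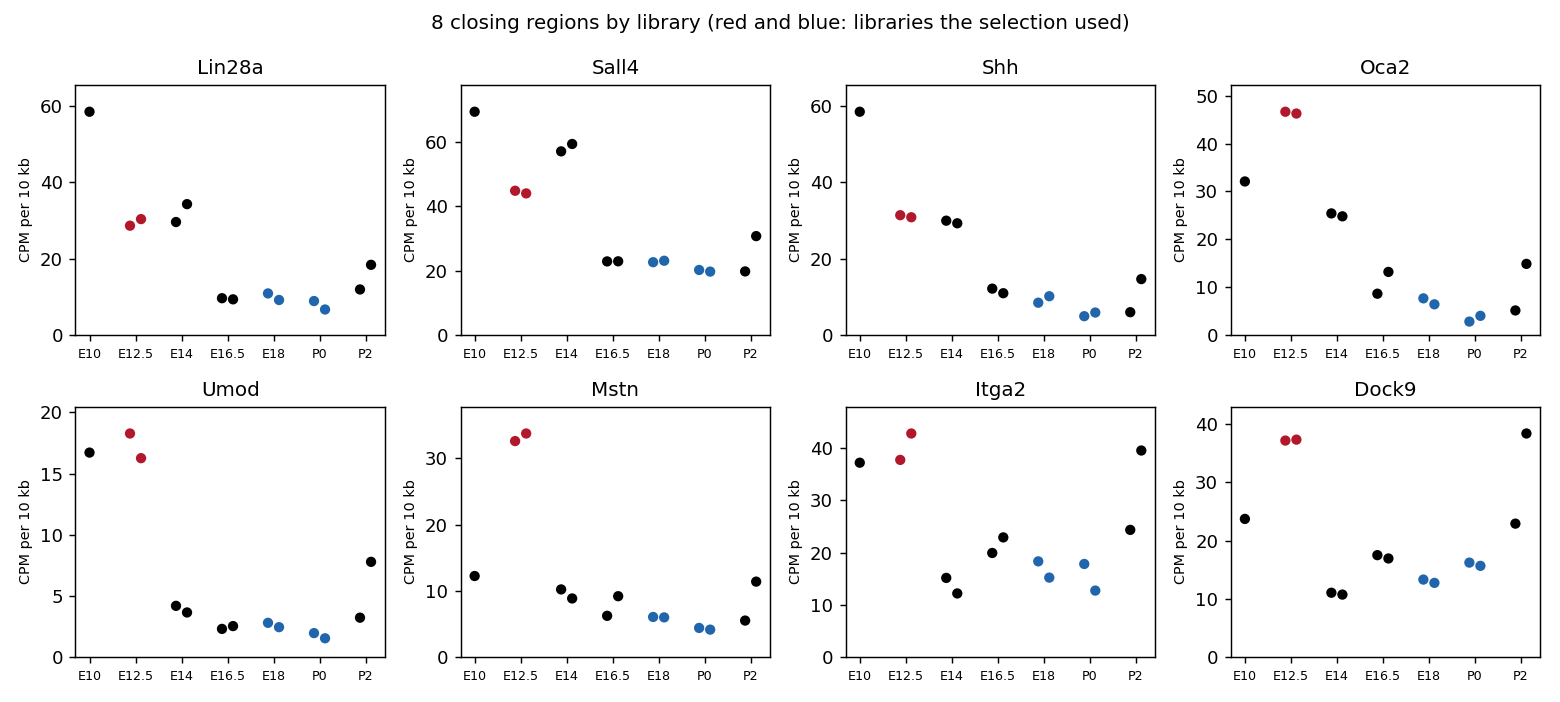
CPM per 10 kb region (y axis from 0) in each GFP+ ATAC library by stage for 8 closing regions, red for E12.5 and blue for E18 and P0, the libraries the selection used, and black for the rest. Lin28a, Sall4 and Shh hold their E12.5 level at E14 and are lower at E16.5, Umod and Mstn are already low at E14, and Itga2 and Dock9 rise again towards P2.

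Between E14 and P2, 357 closing regions (17.6%) were lower and 105 (5.18%) higher by edgeR's test. Over all regions tested, 7.95% were lower and 7.32% higher, and at the floor 10.9% and 8.26%. Members with a start peak were called lower in 256 of 1066, and those with a start under 2 times the outer density in 58 of 598 (9.70%). The median log2 difference of the members was 0.08, against 0.02 over all regions and -0.15 over regions at the floor. Of members, 44.8% had a difference below 0, against 65.3% at the floor. The calls and the median of the members thus point in opposite directions. This rests on the P2 libraries. Without P2 replicate 2, which has the low start enrichment, 36.6% of members were called lower, against 14.6% of all regions, and the median was -0.29. Without P2 replicate 1 the order turned: 18.6% of members were lower against 38.8% of all regions, 46.5% were higher against 36.3%, and the median was 0.37. Scaling by library totals gave 10.8% lower and 6.46% higher, against 10.3% and 11.7% of all regions, so under that scaling the share lower was near the background.

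By the smallest p, the regions lower at P2 were those of Gm17644, Ank3, D930028M14Rik (2 starts), Slc13a1, Clec18a, Filip1l, Cxcl5, Kcnj13 and Gm7694. Ank3 (chr10:69383280-69393279), the ankyrin of the axon initial segment, had 43.6 and 39.6 CPM at E12.5, 48.5 and 52.9 at E14, 21.6 and 23.4 at E16.5 and 10.6 and 20.7 at P2. All its P2 values were below all E14 values, with a log2 difference of -1.90 (SE 0.15, adjusted p = 4.1e-34). Cxcl5 (chr5:91183324-91193323), a chemokine, had 56.9 and 51.6 CPM at E14 and 17.6 and 23.7 at P2 (log2 difference -1.56, SE 0.15). Filip1l (chr16:57348390-57358389) had 43.2 and 39.3 CPM at E14 and 12.8 and 18.2 at P2, and Oca2 (chr7:63490141-63500140) had 25.4 and 24.8 CPM at E14, 8.65 and 13.2 at E16.5 and 5.15 and 14.9 at P2. Kcnj13 and Clec18a, whose upstream bases are printed above, differed by -2.02 (SE 0.20) and -1.60 (SE 0.15) on the log2 scale.

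From E16.5 to P2, 156 closing regions (7.70%) were lower and 54 (2.66%) higher in the same fit, with 7.18% and 6.08% over all regions and 9.84% and 6.97% at the floor. The share called lower is near the background and is no result about the members. Without P2 replicate 2, 27.6% of members were lower, against 14.4% of all regions. Without P2 replicate 1, 9.13% were lower against 34.8%, and 44.6% higher against 32.2%. By library totals 3.60% were lower and 4.93% higher, against 10.1% and 14.2%, so the split between directions turned with the scaling. Filip1l, Ank3 and Clec18a were among those lower and fell by 0.93, 0.75 and 0.64 on the log2 scale.

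Some members were higher at P2 than at E14, although the shares called higher, 5.18% to P2 and 0.987% to E16.5, were below the 7.32% and 1.58% of all regions. In P2 replicate 2, 97.7% of members were above their highest E18 or P0 value, against 42.5% in replicate 1. The E18 and P0 values of members are low by choice, and no share over all regions was computed. These shares therefore only describe how the P2 libraries differ. Itga2 (chr13:115717249-115727248), the integrin alpha 2 chain that binds collagen, had 37.8 and 42.8 CPM at E12.5, 15.1 and 12.2 at E14, 19.9 and 22.9 at E16.5 and 24.3 and 39.6 at P2. Dock9 (chr14:122092639-122102638), an activator of Cdc42, had 37.2 and 37.4 CPM at E12.5, 11.0 and 10.7 at E14, 17.5 and 16.9 at E16.5 and 22.9 and 38.4 at P2. Gucy1a3, a subunit of the nitric oxide receptor guanylate cyclase, had 17.9 and 15.05 CPM at E14 and 34.8 and 47.9 at P2, and both starts of Aqp4, the glial water channel, were called higher as well. The P2 libraries were above both E14 libraries for these 4 genes, with log2 differences of 1.04, 1.31 and 1.16 (SE 0.16, 0.17 and 0.15) for the first 3. Itga2, Aqp4, Lama2 (laminin alpha 2), Il15, Gbp3 and Dgkb had the lowest p-values among members higher at E16.5 than at E14, a choice made after the values were seen. Lama2 had 13.6 and 10.6 CPM at E14 and 23.6 and 27.5 at E16.5 (log2 difference 1.10, SE 0.16).

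**Figure D4:**
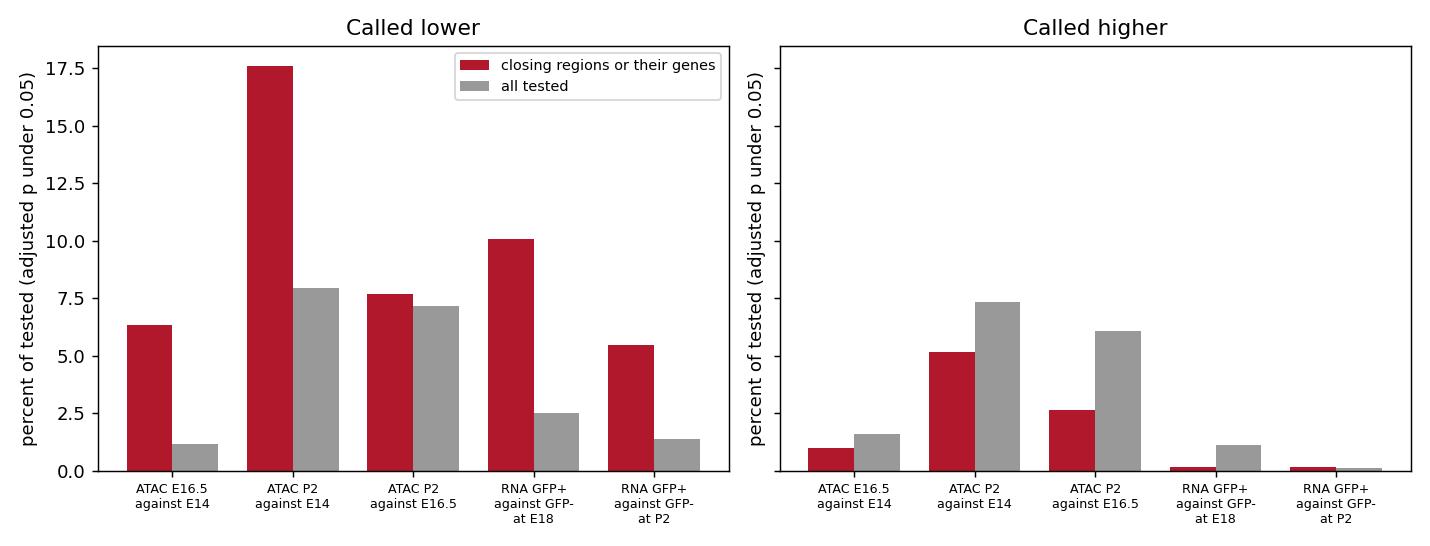
Percent of closing regions or of their genes (red) and of all regions or genes tested (grey) called lower (left) and higher (right) at an adjusted p under 0.05, in 3 ATAC comparisons with edgeR and 2 RNA comparisons with limma. Closing regions were called lower in 6.36% against 1.14% from E14 to E16.5 and 17.6% against 7.95% from E14 to P2. Of their genes past the filter, 10.1% were lower in GFP+ cells at E18, against 2.49% of all, where 240 of the 566 needed at least 1 GFP- library to pass it.

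Gene lists for the retina and its neighbours were counted against the 10.1% of floor regions that are closing. Of 14 core progenitor genes, 11 late progenitor genes, 15 neurogenic genes, 17 optic cup patterning genes, 15 S phase and 15 G2/M genes, 16 Notch pathway genes and 39 Hox genes, 0 were members, and 4 of 218 homeobox, forkhead, Sox, T-box and Gata factor genes were. Early progenitor and heterochronic genes gave 4 of 14, namely Foxp1, Ikzf1, Lin28a and Nr6a1. Ikzf1, the gene of Ikaros, had 62.6 and 66.5 CPM at E12.5 at one start, 51.5 and 46.7 at E14, 39.6 and 41.4 at E16.5 and 22.1 and 37.4 at P2. Its P2 level was lower than at E14 by both starts, with log2 differences of -1.01 and -0.91 (SE 0.15 and 0.16), whereas in the central 2 kb alone the first start differed by 0.31 and the second by -1.07. Nr6a1, an orphan nuclear receptor, had 16.6 and 16.5 CPM at E14 and 8.25 and 15.2 at P2 (log2 difference -0.70, SE 0.25, edgeR adjusted p = 0.037).

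Genes of tissues next to the retina were also among the members. Lens genes gave 5 of 12 (5 of 9 at the floor), namely Cryaa, Cryab, Cryba1, Foxe3 and Mip, and pigment epithelium genes gave Rpe65, Slc45a2 and Tyrp1, 3 of 10. Cryaa, the alpha A crystallin, had 32.6 CPM at E10, 18.9 and 23.8 at E12.5, 4.16 and 2.89 at E14, 3.23 and 3.70 at E16.5 and 4.15 and 14.9 at P2. Foxe3, a lens transcription factor, had 39.3 and 35.8 CPM at E12.5, 16.4 and 15.8 at E14 and 12.5 and 14.9 at E16.5. These lens regions were low from E14 on, with P2 replicate 2 above P2 replicate 1. Endothelial genes gave Emcn and Tek (2 of 10, 8 at the floor) and mesenchymal genes Col3a1 and Dcn (2 of 16, 15 at the floor). Csf1r came from 8 microglia genes, Hba-a1 from 9 red cell genes and Krt18 from 11 surface ectoderm genes, with 2, 3 and 7 of them at the floor. ATAC libraries give no RNA level of these markers, so the part of other cells at E12.5 was not tested.

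Of the signalling lists, Hedgehog gave Shh and its co-receptor Cdon, BMP and TGF-beta gave Bmp2, Bmp5, the BMP antagonist Grem1 and the receptor Tgfbr2 (4 of 24), Wnt gave the inhibitor Dkk2 (1 of 25) and FGF gave 0 of 16. Bmp2 had 61.9 and 63.3 CPM at E12.5, 48.996 and 48.4 at E14 and 24.5 and 33.7 at P2, lower than at E14 by edgeR's test (log2 difference -0.92, SE 0.16). Grem1 fell by 0.52 on the log2 scale between the same ages, as did Tgfbr2. Retinal neuron genes gave Sncg and Stmn2 of ganglion cells (2 of 15), Onecut3 of horizontal cells (1 of 8), Rxrg and Cngb3 of cones (2 of 10), Rp1 of rods (1 of 14), Scgn of bipolar cells (1 of 9) and 0 of 11 amacrine genes. Of the lists with a member, 12.5% to 13.3% of genes at the floor were members, near the 10.1% background, except for the cone list with 2 of 5. The cone starts lay near the floor, with a median of 9.34 and 9.95 CPM at E12.5. The floor uses the same E12.5 values as the rule, so the 2 of 5 is no result about cones. One Rxrg start had 17.9 and 19.0 CPM at E14 and 7.56 and 11.7 at P2 (log2 difference -1.12, SE 0.23), while the other did not pass the test (-0.14, SE 0.15).

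Gene families differed in how many members they gave. Collagens gave 11 of 44 (28.9% of those at the floor), microRNAs 76 of 1136 (13.5% of those at the floor), zinc finger genes named Zfp 13 of 356 (4.08% of those at the floor), solute carriers 44 of 375 (293 at the floor) and histone clusters 0 of 69. Only 26 of 1101 olfactory receptor genes reached the floor at E12.5 and 24 of these were members, which is 2.18% of the 1101, against 7.19% of all regions. The floor uses the same E12.5 values as the rule, so the 24 of 26 is no result about the family. Olfr448, an olfactory receptor gene with a ratio among the highest 12, had 23.2 and 23.5 CPM at E12.5, 14.7 and 13.5 at E14, 5.77 and 8.24 at E16.5 and 5.26 and 8.19 at P2.

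The genes of closing regions were weakly transcribed in these cells. Of 1608 symbols found in the RNA table, 566 (35.2%) reached 1 FPKM in at least 2 libraries, against 60.7% of all genes with a region, and 157 were listed at 0 in all 12 libraries. At least 1 FPKM was reached by 14.4% to 20.9% of the 1608 in GFP+ libraries and by 23.9% to 29.8% in GFP- libraries, without overlap. Over all genes with a region the shares were 52.9% to 53.9% and 54.6% to 57.0%. Tests below are on the 566 genes past the filter, which are not all genes of the members.

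Between the sorts, few genes passed the test and most of those were lower in GFP+ cells. Of the 566 genes past the filter, 240 (42.4%) reached 1 FPKM in under 2 of the 6 GFP+ libraries, against 8.33% of all genes past it. Such genes needed at least 1 GFP- library to pass the filter, so the counts below are a description and give no support for a difference between the sorts over the members. By limma on log2(FPKM + 1) over all 12 libraries, 57 of 566 (10.1%) were lower in GFP+ cells at E18 and 1 higher, against 2.49% and 1.13% of the 14276 genes tested. A pseudocount of 0.1 gave 3.36% lower against 0.799%. At P2, 31 (5.48%) were lower and 1 higher, against 1.37% and 0.112%. Without the filter, over 1451 genes, 6.48% were lower at E18 against 3.07% of all and 2.00% at P2 against 0.896%, and the median log2 difference was -0.08 and -0.02, against 0.00 over all genes at both ages. The spread in this fit includes the E14 libraries, whose replicates differ. With the 4 E14 libraries left out, an alternative chosen after seeing the data, 355 were lower and 64 higher at E18 (3622 and 3568 of all) and 261 and 37 at P2 (2461 and 2235 of all). With any 1 library of the contrast left out, 0.707% of members were called lower at E18, which is 4 of 566, against 0.140% to 0.168% of all genes. At P2 it was 0.530% to 2.65%, against 0.210% to 1.121%.

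The genes with the lowest p-values of this sort contrast, chosen after the values were seen, included synaptic, channel and photoreceptor genes. Tnc (the matrix protein tenascin C) had 0.140 and 0.172 FPKM in GFP+ and 10.1 and 13.2 in GFP- libraries at E18, and 0.186 and 0.0796 against 10.0 and 10.3 at P2. Tnc differed by -3.44 at E18 and -3.30 at P2 on the log2(FPKM + 1) scale (SE 0.19, limma adjusted p = 0.00036 and 0.00034). At these ages only its GFP- libraries reached the 1 FPKM of the filter, so these values describe a picked gene. Rp1, a protein of the photoreceptor outer segment, had 0.516 and 0.410 FPKM in GFP+ and 12.1 and 10.6 in GFP- libraries at E18, and 2.13 and 1.06 against 29.5 and 76.9 at P2. The groups did not overlap for either gene at either age. Necab1 (a neuronal calcium-binding protein), Rd3l, Kcnab1 (a potassium channel beta subunit), Moxd1, Cbln2 (a secreted synapse organiser) and Pex5l (a regulator of HCN channels) were lower at both ages.

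**Figure D5:**
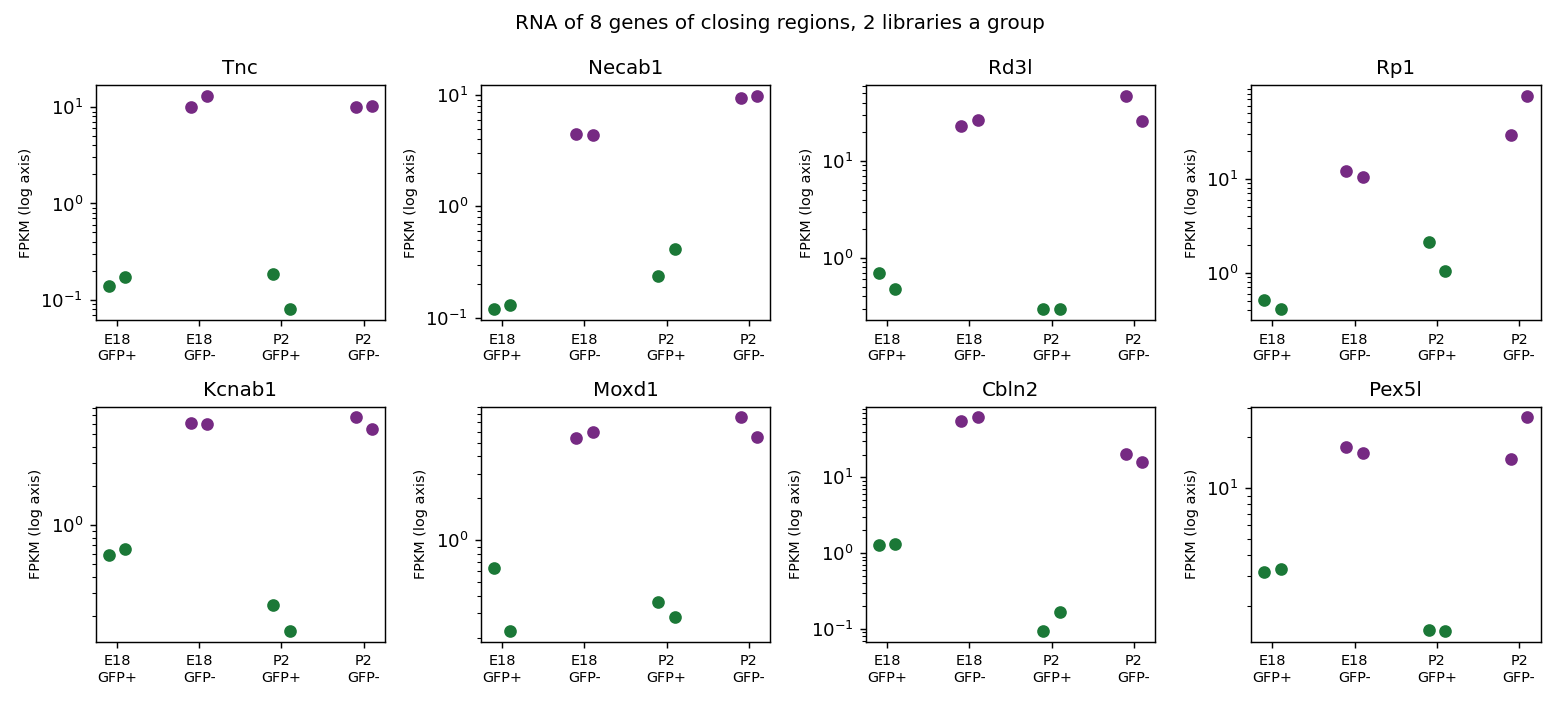
FPKM (log axis) of 8 genes of closing regions in GFP+ (green) and GFP- (purple) libraries at E18 and P2, 1 point per library. All GFP- points lie above all GFP+ points of the same age, as for Tnc with 10.1 and 13.2 against 0.140 and 0.172 FPKM at E18. The genes were picked after their values were seen, so their separation is a description and no test.

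The exception in both sort contrasts was Sorbs2, an actin and junction adaptor, with 78.8 and 78.4 FPKM in GFP+ and 45.7 and 43.5 in GFP- libraries at E18, and 95.5 and 93.5 against 47.8 and 43.1 at P2. It was higher in GFP+ cells by 0.80 and 1.04 (SE 0.17). In GFP+ cells it also rose from 54.3 and 39.4 FPKM at E14, by 1.02 to P2 (SE 0.17, limma adjusted p = 0.034), while its region had 14.9 and 14.0 CPM at E14 and 10.2 and 13.9 at P2.

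Within GFP+ cells, RNA between ages gave few calls in these genes. From E14 to P2, 3 were lower and 5 higher by limma (0.217% and 0.932% of all genes), from E18 to P2 8 lower and 5 higher (3.51% and 4.47%), and from E14 to E18 6 lower and 8 higher (4.06% and 4.36%). These shares, at most 1.41% of 566, are no larger than the background except for the fall from E14 to P2, which rests on 3 genes. Those 3 were Bdnf (a neurotrophin), Hspa12b (a heat shock protein relative of endothelial cells) and Eya2 (a transcriptional coactivator and phosphatase). Bdnf had 2.57 and 6.63 FPKM at E14, 1.86 and 1.40 at E18 and 0.259 and 0.272 at P2. Eya2 had 22.2 and 17.8, 7.93 and 7.99, and 5.76 and 5.74. Both P2 libraries were below both E14 libraries in each.

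Genes higher at P2 than at E14 in GFP+ cells were Itga2, Rspo2 (an agonist of Wnt signalling), Sox5 (a transcription factor), Clec2g and Sorbs2. Itga2 had 0.0427 and 0.0604 FPKM at E14, 0.362 and 0.335 at E18 and 4.08 and 2.28 at P2 (difference 1.96, SE 0.24, limma adjusted p = 0.010). Its region was higher at P2 than at E14 too. Sox5 had 0.720 and 0.777, 1.64 in each and 4.44 and 3.28 FPKM. Between E18 and P2, Filip1l went from 4.67 and 4.47 to 0.259 and 0.618 FPKM (difference -1.96, SE 0.42) and Asns (asparagine synthetase) from 27.2 and 30.9 to 3.20 and 3.88 (difference -2.73, SE 0.48). The regions of both were lower at P2 than at E14, with log2 differences of -1.59 for Filip1l and -0.73 for Asns.

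The RNA of Lin28a, Sall4 and Stra6, whose regions were lower at E16.5 than at E14, was mostly seen in the E14 replicates 2. Lin28a had 0.164 and 10.8 FPKM in the E14 GFP+ libraries, 0.238 and 10.4 in the E14 GFP- libraries and at most 0.481 in the other 8. Sall4 had 0.0883 and 8.52, 0.273 and 8.59 FPKM and at most 0.427 later, and Stra6 had 3.60 and 61.0, 10.2 and 115 FPKM and at most 3.48 later. In each, replicate 2 exceeded replicate 1 in both sorts, and none passed the test between ages. These are the libraries with high lens and pigment epithelium RNA. The E14 GFP- replicate 2 also held progenitor and cell division RNA: the 14 early progenitor genes summed to 1911 FPKM in it and 168.7 in GFP- replicate 1, against 1776 and 2476 in the E14 GFP+ libraries, and the 15 G2/M genes to 649.5 and 37.97. The part of these in the differences between replicates was not tested. Shh was listed at 0 in both E14 GFP+ libraries, at 9.91 FPKM in the E14 GFP- replicate 1 and at 0 in replicate 2. Mstn and Sncg were in the same E14 GFP- replicate 1 at 94.8 and 1334 FPKM, and at 0.0290 and 1.99 in replicate 2.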

How the data were processed

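ATAC-seq was measured in 13 GFP+ libraries and RNA-seq in 12 libraries of both sorts. The authors deposited ATAC counts without normalization, in 200 bp windows on mm9 coordinates per the file headers, and RNA values taken as FPKM, a unit inferred from the values. Per the submitters' processing notes, Bowtie2, HISAT2, Picard 2.10.7, SAMtools 1.5, featureCounts 1.5.3 and bedtools 2.26.0 were used, with no step named. RNA depth is unknown.

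Runs of 50 windows were summed, and CPM are counts over the total of all runs. A further 154 regions on unplaced sequence were left out, which hold 0 counts in the E10 library and P2 replicate 1. The members, lists and tests were chosen with earlier results of these data known. Libraries of E14, E16.5 and P2 were tested with edgeR 4.0.16 (TMM, default low-count filter, quasi-likelihood). RNA was tested as log2(FPKM + 1) with limma 3.58.1 (variance trend, genes with at least 1 FPKM in 2 libraries). Benjamini-Hochberg adjustment covered all features tested. Both were tested on simulated data. DESeq2 1.42.0, other scalings, filters, member rules and left-out libraries were tried.

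Named were the 12 highest ratios, the 8 highest E12.5 levels, the 10 smallest p lower and up to 5 higher at P2 than E14, up to 8 RNA calls in each direction between ages, members of the gene lists, and regions beside the threshold. One of these is not reported here. Others are said to be chosen after seeing values. Same-numbered replicates are not said to be paired.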

Additional observations from a re-analysis of the deposited data

How the results depend on the processing

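Values are the percent of closing regions or of their genes called at an adjusted p under 0.05, and settings not listed stayed within 1.5 times of the reported percent with the median on the same side of 0. For the regions, library totals in place of TMM gave 10.8% lower from E14 to P2, against 10.3% of all regions. From E16.5 to P2 they gave 3.60% lower and 4.93% higher, against 10.1% and 14.2%. A floor of 20 CPM, which keeps 902 members, gave 34.0% lower and a median of -0.23 from E14 to P2. It gave 10.8% lower and 2.22% higher from E14 to E16.5, and 16.5% lower with a median of -0.10 from E16.5 to P2. Of all regions, 7.95%, 1.14% and 7.18% were lower, in this order, and 1.58% higher from E14 to E16.5. No share over all regions at that floor was computed, so these values only describe the stricter rule. A fit of all 13 libraries takes its spread also from the E12.5, E18 and P0 libraries that chose the members. Its values are therefore a description and no independent check. It gave 12.4% higher from E14 to P2, against 14.7% of all regions. From E14 to E16.5 it gave 9.92% lower and 2.17% higher, against 2.42% and 2.43%. From E16.5 to P2 it gave 10.5% higher, against 14.5%. DESeq2 gave 0.499% higher from E14 to E16.5, the central 2 kb 2.07% with a median of 0.0036, and a ratio of 2 in the rule 0.449%. Of all regions, 1.31%, 2.14% and 1.58% were higher, in this order. Scaling to the outermost windows, chosen after seeing the data, gave medians of -0.12 from E14 to P2 and -0.067 from E16.5 to P2. In the latter, 1.18% were higher, against 3.01% of all regions. Leaving out the chromosome 14 copies, also chosen later, moved no count by over 1.5 times.

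For the RNA of GFP+ cells between ages, dropping the filter on low values gave 0.345% called from E14 to P2, 1.52% from E14 to E18 and 1.17% from E18 to P2. Of all genes, 0.494%, 6.12% and 5.94% were called, in this order. A fit of only the 4 libraries of a contrast gave 0%, 4.59% and 29.9%, in this order, against 0%, 9.37% and 37.2% of all genes (limma, with 79 of 566 at an unadjusted p under 0.05 from E14 to P2 in the fit of 12). A ratio of 2 gave 2.21% from E14 to P2, against 1.15% of all genes, and a median of 0.020 from E14 to E18. There a pseudocount of 0.1 gave a median of 0.017. Between sorts at E18, the percent lower and higher were 6.48 and 0.345 without the filter (3.07 and 1.17 of all genes). They were 64.8 and 11.5 with only 4 libraries (28.3 and 27.4 of all genes) and 3.36 and 0 with a pseudocount of 0.1 (0.799 and 0.203 of all genes). Quantile normalization gave 2.12% higher, against 3.36% of all genes, and a ratio of 2 gave 0.316% higher, against 1.13%. At P2 they were 39.0 and 4.59 with only 4 libraries (11.5 and 7.73 of all genes) and 3.36 and 0 with quantile normalization, while 2.00% were lower without the filter and 0.316% higher with a ratio of 2. Without the E14 libraries, chosen after seeing the data, 25.1% were called from E18 to P2, against 34.5% of all genes, 62.7% lower and 11.3% higher between sorts at E18, and 46.1% lower and 6.54% higher at P2.

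Same-numbered replicates share only a number in the labels, with correlations of deviations of -0.43 to 0.44 for ATAC and -0.56 to 0.11 for RNA. A replicate block gave 1.04% of regions higher from E16.5 to P2, against 4.01% of all regions. It gave 0.883% of genes called from E14 to P2, against 0.644% of all genes. Between sorts at E18 it gave 4.59% lower and 0% higher, against 1.21% and 0.680% of all genes. It moved no other count by over 1.5 times.

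With 1 library left out at a time, where the lone library is assumed to vary like the other groups, regions lower and higher ranged from 6.91% to 36.6% and 0.839% to 46.5% from E14 to P2, 1.63% to 2.61% and 0.0493% to 0.444% from E14 to E16.5, and 1.14% to 27.6% and 0.345% to 44.6% from E16.5 to P2. Medians ranged from -0.29 to 0.37, -0.15 to 0.013 and -0.27 to 0.40. Over all regions the medians ranged from -0.004 to 0.033, -0.005 to 0.009 and 0.003 to 0.069, in the same order. The shares called over all regions and over all genes also moved with the library left out. The ranges of shares in this paragraph therefore describe the fits and are no result about the members. Genes called ranged from 0% to 5.12% (E14 to P2), 0.530% to 7.24% (E14 to E18, median -0.050 to 0.019) and 0.530% to 0.883% (E18 to P2). Between sorts they were 0.707% lower and 0% higher at E18, and 0.530% to 2.65% lower and 0% higher at P2.

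Of 188 calls on single named genes or starts, many kept their sign but lost the call under some setting. A replicate block lost 32 and kept 156. DESeq2 lost 23 and kept 92 of the ATAC calls, and a pseudocount of 0.1 lost 22 and kept 51 of the RNA calls. Calls were also lost with 1 library left out. A change of sign under some setting was found for 10, all in the central 2 kb. From E14 to P2 these were Gm7694 (0.86), Ikzf1 at one start (0.31), Slc13a1 (0.23), Olfr448 (0.026), Mcf2l (0.038), Fez1 (0.22) and D930028M14Rik (0.21), from E14 to E16.5 Gm17644 (0.24), and from E16.5 to P2 Rxrg (0.32) and Gm7694 (1.06).

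Groups hold 2 libraries, so 1 library can decide a count, as P2 replicate 2 does. The RNA files give no depth, and E10 has 1 library. Region counts also include the even background of a library, which differs between them, and 598 of the members have little or no peak at the start.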
